A study of Homo sapiens with 3 samples.

Results

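Replication-dependent histone genes encode the histones H2A, H2B, H3 and H4, which form the nucleosome core, and the linker histone H1. Members were taken as genes whose current symbol is H1-1 to H1-5, or H2AC, H2BC, H3C or H4C with a number, without pseudogenes. This gave 67 of the 60664 gene identifiers, with 5 for H1, 15 for H2A, 19 for H2B, 13 for H3 and 15 for H4. H2AC18 and H2AC19 could not be matched by identifier and were not analysed here.

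The libraries came from Caco-2, an established human colon carcinoma line that is used as a model of the gut epithelium. One library was made from cells given 30 µM polydatin, a glucoside of resveratrol, for 2 h before and then together with 3% dextran sulfate sodium (DSS) for 8 h. Another was made from cells given 3% DSS alone for 8 h, and the control library from untreated cells of the same line, all labelled wild type. DSS is a sulfated polysaccharide that provokes colitis in rodents, and the title of the series names polydatin's protection against it as the question. There was 1 library for each group, so no difference given here has a replicate check, and no p-value is given.

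Library totals ran from 16667622 to 18825914 counts. Counts were scaled for library size with trimmed-mean (TMM) factors and are given as CPM, the share of a library's scaled total, and 1 CPM stood for 17.4 counts in DSS+polydatin, 18.5 in DSS and 18.2 in control. A gene was called measured when it reached 1 CPM in at least 1 library. A ratio was called higher or lower at 1.5-fold or more with a 95% exact interval that excluded 1, and all intervals cover counting error only. Of 12 fixed markers of colon epithelium 10 were measured, CDX1 was at 0 in all libraries and KRT20 had 8 counts in DSS+polydatin, 9 in DSS and 10 in control. The list summed to 7060 CPM in DSS+polydatin, 8800 CPM in DSS and 7330 CPM in control. Within it SI, the brush border enzyme sucrase-isomaltase, was lower in DSS at 0.198 times control (0.167 to 0.233), and the intestinal transcription factor CDX2 was lower in DSS+polydatin at 0.533 times control (0.499 to 0.569). The 5 immune markers summed to 45 counts in DSS+polydatin, 84 in DSS and 14 in control, nearly all from LYZ, with PTPRC at 0 in each library. The 6 stromal and endothelial markers summed to 66.2 CPM in DSS+polydatin, 65.1 CPM in DSS and 83.6 CPM in control, with no counts of ACTA2 in either treated library and 4 in control. COL1A1 had the most counts of the 6, with 755 in DSS+polydatin, 701 in DSS and 720 in control. PDGFRA had 164 counts in DSS+polydatin, 186 in DSS and 342 in control, and COL1A2 had 2, 1 and 0 in the same libraries. VWF had 68 counts in DSS+polydatin, 22 in DSS and 9 in control, and PECAM1 had 166 counts in DSS+polydatin, 297 in DSS and 443 in control. Whether other cell types play a part in the histone differences was not tested.

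Replication-dependent histone mRNA is made mainly in S phase, when new DNA must be packed. Most of it ends in a conserved stem-loop in place of a poly(A) tail. The stem-loop is bound by SLBP, and cleavage after it is guided by the U7 small nuclear RNA. Some of these genes are also known to give polyadenylated transcripts that run past the stem-loop or are spliced, and a library primed on poly(A) would capture mainly those. Whether poly(A) RNA was selected here is not stated by the labels used. In bulk RNA, more cells making a transcript and more transcript in each cell cannot be told apart.

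The stem-loop is shown because it marks where the short histone mRNA ends. It was found by its consensus in the GENCODE release 29 transcripts (GRCh38) of 29 members, on the sense strand, and took 6 forms. Capitals mark the 4-base loop between the stem arms.
H2AC6, H2BC21, H2AC25 and 12 others: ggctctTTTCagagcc
H2BC4, H2BC5, H2BC7 and H3C8: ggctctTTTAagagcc
H4C8, H4C5, H4C16 and 2 others: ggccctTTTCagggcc
H4C9, H4C14 and H4C15: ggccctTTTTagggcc
H3C6: ggctctTCTCagagcc
H2AC11: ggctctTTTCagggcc
The 8 H4 genes with a stem-loop share 1 first arm, and the 21 genes of the other families with one share another. The arms pair at 6 of 6 positions in 5 of the forms and, counting only Watson-Crick pairs, at 5 in that of H2AC11.

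Members were then split by their annotated transcripts, with a length limit that was set with the counts in view. A gene was called extended when a release 29 transcript was spliced or ran at least 100 bases past the stem-loop, which held for 26 members. Another 39 had only short single-exon transcripts, and 2 (H3C2 and H3C3) were not in that release. Of the extended genes 20 (76.9%) were measured, against 3 of the short genes (7.69%), namely H2BC12, H1-2 and H2AC8. The median count over the 3 libraries together was 143 for extended and 4 for short genes. A short gene model can only collect reads that fall within it, and the sources used do not name the annotation the counting relied on, so its part in this contrast was not tested. The release 29 model of H2BC12 holds its coding sequence alone (381 bases), while RefSeq gives the gene a span of several kilobases.

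**Figure D1:**
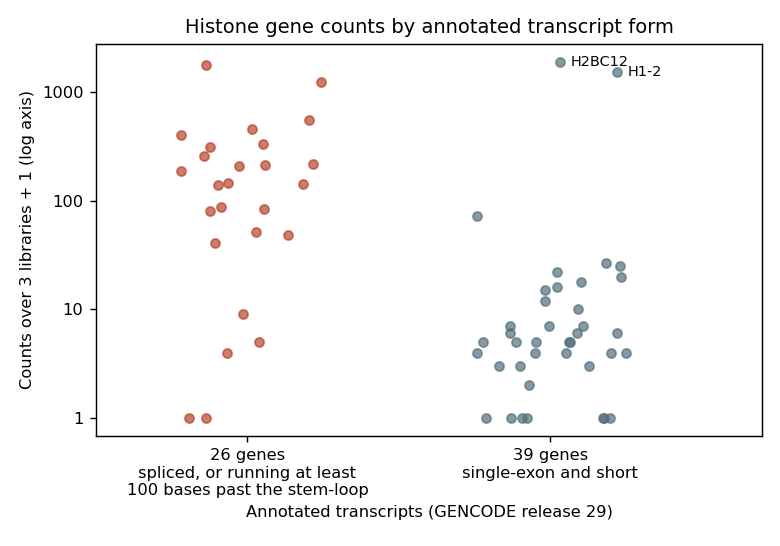
Each point is a histone gene, placed by its counts summed over the 3 libraries plus 1 (log axis), for 26 genes with extended and 39 genes with short annotated transcripts. Most extended genes lie well above the short genes, of which H2BC12 and H1-2 are the labelled exceptions.

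Summed over all 67 members, with no filter on low counts, histone genes were higher in both treated libraries than in control. The sum was 4122 counts (236 CPM) in DSS+polydatin, 4443 counts (240 CPM) in DSS and 2158 counts (119 CPM) in control. The DSS sum was 2.02 times control (1.92 to 2.13) and the DSS+polydatin sum 1.99 times control (1.89 to 2.10). DSS+polydatin was at 0.986 times DSS (0.945 to 1.03), so with TMM scaling the total of all members showed no difference between the treated libraries beyond counting error. That ratio was 1.05 with total-count scaling (1.00 to 1.09) and 1.05 without H2BC12 (1.00 to 1.10). The 4 most counted genes, H2BC12, H2AC6, H1-2 and H2BC5, held 60.1% of member counts in DSS+polydatin (58.6 to 61.6), 61.7% in DSS (60.2 to 63.1) and 57.0% in control (54.9 to 59.1). Without them, a choice made after seeing the data, the DSS sum was 1.80 times control (1.66 to 1.95).

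All 5 families were higher than control in both treated libraries. The DSS to control ratio of the summed counts was 2.05 for H1 (1.79 to 2.34), 2.21 for H2A (1.98 to 2.49) and 1.89 for H2B (1.76 to 2.04). It was 1.98 for H3 (1.66 to 2.37) and 2.50 for H4 (2.00 to 3.14). These 5 intervals all overlap each other. In DSS, H2AC6 held 744 of the 976 H2A counts and H1-2 held 648 of the 668 H1 counts, so those family ratios follow mainly those genes. For DSS+polydatin against control the family ratios ran from 1.81 for H2B (1.68 to 1.95) to 2.50 for H4 (1.99 to 3.14). H2A was at 2.36 times control there (2.11 to 2.65), and neither its interval nor that of H4 overlaps that of H2B. Between the treated libraries every family interval included 1 with TMM scaling. With total-count scaling H2A was at 1.13 times DSS (1.04 to 1.24).

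**Figure D2:**
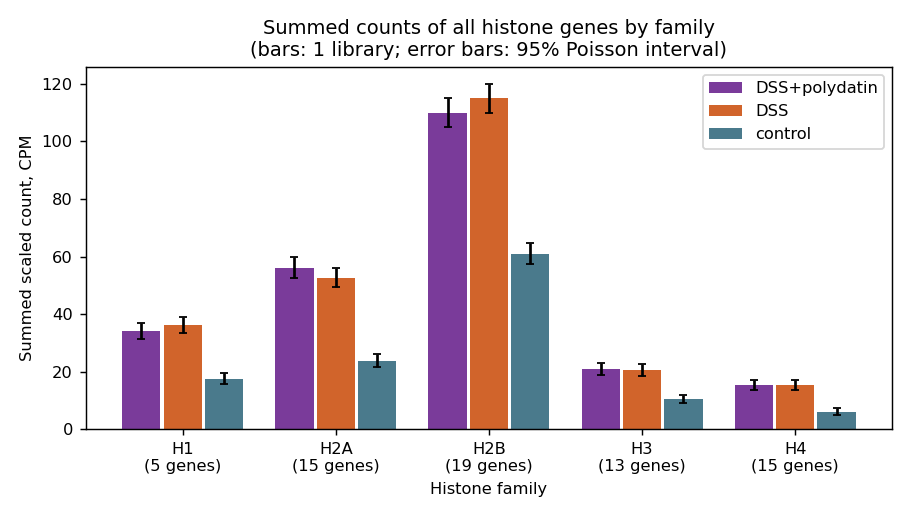
Bars give the summed scaled count (CPM) of all members of each histone family in the DSS+polydatin, DSS and control libraries, with 95% Poisson intervals as error bars. Both treated libraries stand above control in all 5 families, for H2B at 110 CPM in DSS+polydatin and 115 CPM in DSS against 60.9 CPM in control.

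Split by annotated transcript, member sums differed between the treated libraries where the total with TMM scaling did not, a contrast that leans heavily on H2BC12. Extended genes summed to 2903 counts in DSS+polydatin, 2826 in DSS and 1243 in control. Their sum was 2.23 times control in DSS (2.08 to 2.38), and in DSS+polydatin 1.09 times DSS (1.04 to 1.15). Short genes summed to 1217 counts in DSS+polydatin, 1612 in DSS and 907 in control. Their sum was 1.74 times control in DSS (1.60 to 1.89), and in DSS+polydatin 0.802 times DSS (0.744 to 0.865). With H2BC12 counted as short, the intervals of the classes do not overlap in either contrast. The order held with each of the 3 scalings used. These gave 1.09 to 1.16 for extended and 0.797 to 0.853 for short genes between the treated libraries. H2BC12 and H1-2 held most of the short genes' counts. H2BC12 alone had 558 of the 1217 in DSS+polydatin and 836 of the 1612 in DSS, at 0.709 times DSS (0.636 to 0.790). H1-2 was at 0.943 times DSS (0.841 to 1.06). Given its longer RefSeq span, H2BC12 could also be placed with the extended genes. That would narrow the contrast, and whether the class intervals would stay apart was not computed here. The gap between them is shown only with H2BC12 counted as short. Without H2BC12 and H1-2, a choice made after their values were seen, 37 short genes summed to 84 counts in DSS+polydatin, 128 in DSS and 91 in control. Their DSS sum was 1.38 times control (1.05 to 1.82). H2AC8, which reached 1 CPM only in the treated libraries, held 36 of the 128 counts in DSS and 14 of the 91 in control. The ratio without H2AC8 was not computed here. The DSS+polydatin sum of the 37 genes was 0.697 times DSS (0.523 to 0.925) and 0.961 times control (0.706 to 1.31).

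Single members followed the sum. Of the 23 measured members 16 (69.6%) were higher in DSS than in control and none was lower, while 9.45% of all 14792 measured genes were higher and 5.81% lower. Their median log2 ratio was 0.99, beside −0.01 over all measured genes. Against control, 14 of the 23 were higher in DSS+polydatin and none lower, with 16.0% of all measured genes higher and 12.4% lower, and the median log2 ratio was 0.86 beside −0.02. Of the 23, 5 reached 1 CPM only in a treated library, so they had to differ. They were H2AC8, H2BC6, H2BC7, H2BC18 and H2BC26. Among the remaining 18, 13 were higher in DSS. No measured member was called in either direction between DSS+polydatin and DSS, where 5.39% of all measured genes were higher and 2.6% lower. By a 2-fold rule 11 of the 23 were higher in DSS than in control and none lower, with 4.24% of all measured genes higher and 1.76% lower. By that rule 8 were higher in DSS+polydatin than in control and none lower, beside 8.53% and 3.27% of all measured genes, and none passed between the treated libraries, beside 1.94% and 0.46%.

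**Figure D3:**
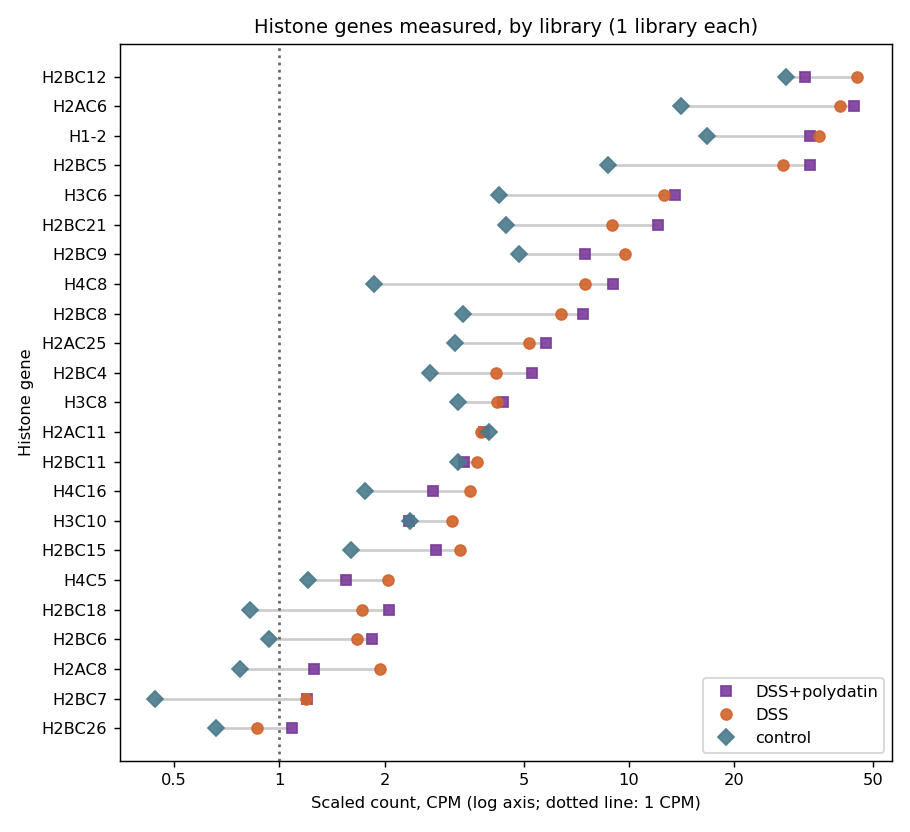
Scaled counts (CPM, log axis) of the 23 measured histone genes in the DSS+polydatin, DSS and control libraries, ordered by mean level. The control point lies left of both treated points for all but H2AC11 and H3C10, most widely for H4C8, with 157 counts in DSS+polydatin and 139 in DSS against 34 in control.

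H1-2 (chromosome 6, 26055787 to 26056428, minus strand, a single exon) encodes a linker histone, which binds DNA where it enters and leaves the nucleosome. It had 575 counts in DSS+polydatin, 648 in DSS and 305 in control, 2.08 times control in DSS (1.81 to 2.39) and 1.96 times in DSS+polydatin (1.71 to 2.26). It was the sole measured H1 gene among the members, H1-1, H1-3, H1-4 and H1-5 having at most 9 counts in any library.

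The H2A genes encode partners of H2B in the dimers that flank the central H3 and H4 tetramer. H2AC6 (chromosome 6, 26124145 to 26139116, plus strand, spliced in release 29) had 771 counts in DSS+polydatin, 744 in DSS and 256 in control. Its ratio to control was 2.85 in DSS (2.47 to 3.30) and 3.14 in DSS+polydatin (2.72 to 3.63). H2AC25 (chromosome 1, 228456979 to 228457873) had 101 counts in DSS+polydatin, 96 in DSS and 58 in control, 1.62 times control in DSS (1.16 to 2.29). Both were therefore high in the treated libraries. H2AC11 (chromosome 6, 27133042 to 27135291) was the exception, with 67 counts in DSS+polydatin, 70 in DSS and 72 in control and a DSS to control ratio of 0.953 (0.676 to 1.34). H2AC8, with 22 counts in DSS+polydatin, 36 in DSS and 14 in control, was higher in DSS at 2.52 times control (1.33 to 5.06), and in DSS+polydatin its interval reached 1 at 1.64 times control (0.801 to 3.46).

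H2B genes held the most members measured, 12 of 19. H2BC12 (chromosome 6, 27146418 to 27146798) had 558 counts in DSS+polydatin, 836 in DSS and 511 in control. It was 1.60 times control in DSS (1.43 to 1.79), and alone among the 4 most counted genes it lay nearer control than DSS in DSS+polydatin, at 0.709 times DSS (0.636 to 0.790). After removal of a smooth trend on transcript length and GC content, the log2 ratio of H2BC12 in DSS against control was 0.52, under the 1.5-fold line, and its log2 ratio in DSS+polydatin against DSS was −0.61, past it. Of its 50-base windows 74.1% also occur in transcripts of other genes, so its count is uncertain. H2BC5 (chromosome 6, 26158146 to 26171349, spliced) had 575 counts in DSS+polydatin, 513 in DSS and 158 in control. It was 3.18 times control in DSS (2.66 to 3.83), 3.79 times in DSS+polydatin (3.17 to 4.55), and 1.19 times DSS in DSS+polydatin (1.06 to 1.34). Its annotated span, introns included, overlaps other genes on both strands, and whether reads from those genes entered its count was not tested. H2BC21 (chromosome 1, 149884459 to 149886652) showed the same order, with 211 counts in DSS+polydatin, 166 in DSS and 81 in control. Its ratio to DSS was the highest of the measured members, 1.35 in DSS+polydatin (1.10 to 1.67). H2BC9 (chromosome 6, 26251651 to 26253710) ran the other way between the treated libraries, with 131 counts in DSS+polydatin, 181 in DSS and 88 in control, 0.769 times DSS in DSS+polydatin (0.609 to 0.968).

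The remaining measured H2B genes had from 8 to 129 counts in a library. H2BC8, H2BC4, H2BC15, H2BC18 and H2BC7 were higher in both treated libraries than in control, with DSS to control ratios from 1.54 for H2BC4 (1.06 to 2.25) to 2.70 for H2BC7 (1.16 to 7.00). H2BC6 was higher in DSS+polydatin at 1.96 times control (1.06 to 3.76), while its DSS to control ratio, 1.79 (0.959 to 3.44), did not pass. H2BC11 and H2BC26 passed in neither comparison, at 1.13 (0.785 to 1.63) and 1.31 (0.580 to 3.03) times control in DSS. H2BC6, H2BC15 and H2BC18 also overlap other annotated genes.

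H3 and H4 genes encode the histones at the nucleosome's centre. H3C6 (chromosome 6, 26224199 to 26227473, spliced) had 238 counts in DSS+polydatin, 233 in DSS and 77 in control, 2.97 times control in DSS (2.28 to 3.89) and 3.22 times in DSS+polydatin (2.48 to 4.22). H3C8 had 76 counts in DSS+polydatin, 78 in DSS and 59 in control, and H3C10 had 41, 58 and 43 in the same libraries. Neither passed, with DSS to control ratios of 1.30 for H3C8 (0.912 to 1.85) and 1.32 for H3C10 (0.876 to 2.01), so among H3 genes the summed difference came mostly from H3C6. H4C8 (chromosome 6, 26277609 to 26285638, minus strand, spliced) had 157 counts in DSS+polydatin, 139 in DSS and 34 in control. This was the largest ratio among the measured members in both contrasts with control, 4.01 in DSS (2.74 to 6.02) and 4.81 in DSS+polydatin (3.30 to 7.19). H4C16 (chromosome 12, 14767999 to 14771131) lies outside the main clusters and had 48 counts in DSS+polydatin, 65 in DSS and 32 in control, 1.99 times control in DSS (1.28 to 3.14). H4C5, with 27 counts in DSS+polydatin, 38 in DSS and 22 in control, did not pass at 1.69 times control in DSS (0.976 to 3.01).

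**Figure D4:**
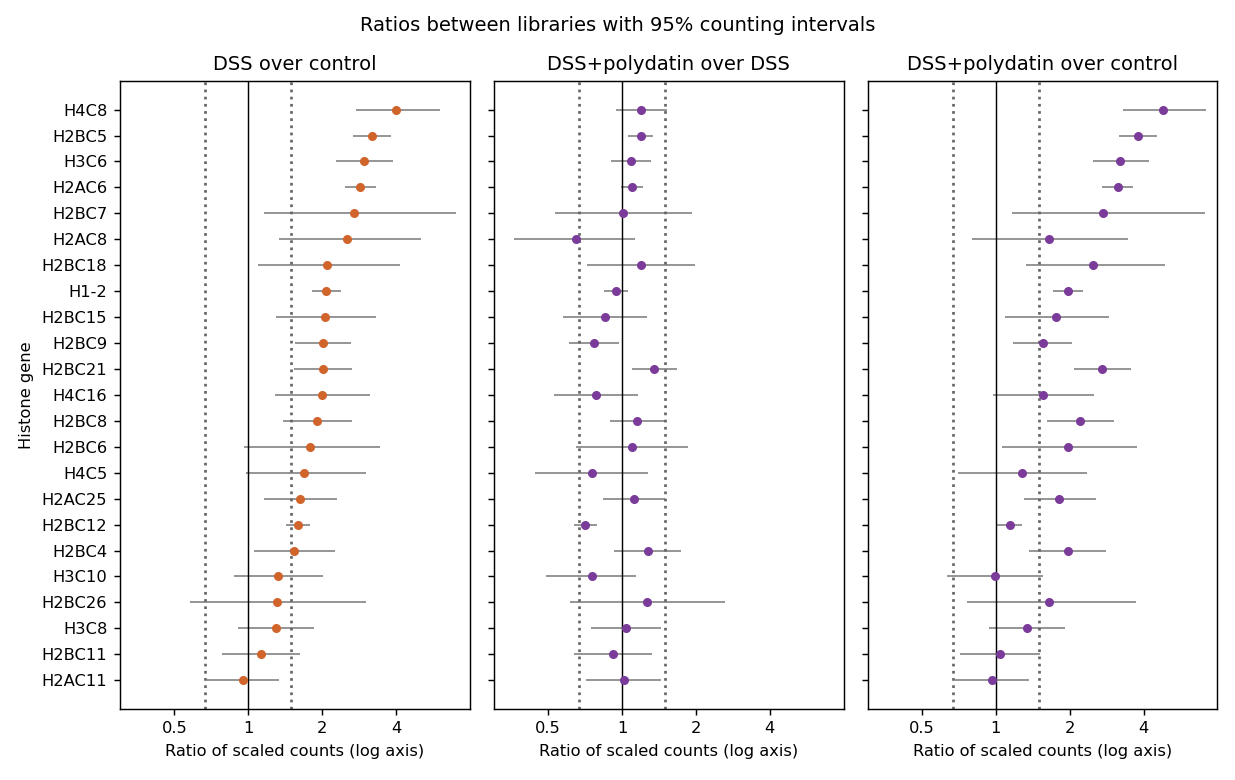
Ratios of scaled counts (log axis) with 95% counting intervals for the 23 measured histone genes in DSS over control, DSS+polydatin over DSS and DSS+polydatin over control, with dotted lines at 1.5-fold either way. Against control nearly all points lie right of 1, up to 4.01 in DSS and 4.81 in DSS+polydatin for H4C8, while between the treated libraries they lie around 1, from 0.649 for H2AC8 to 1.35 for H2BC21.

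The other 44 members had at most 16 counts in any library and 9 of the 67 had none. Together the 44 summed to 87 counts in DSS+polydatin, 116 in DSS and 98 in control. The DSS to control ratio of that sum was 1.16 (0.879 to 1.53), so no difference was detectable at this depth. The 44 were set apart by staying under 1 CPM in every library. Low members that rose past it in a treated library are therefore not in this sum, which pulls its ratio down. Of the 44, 14 had more counts in DSS than in control, 12 had fewer and 18 had the same. A count of 0 allows up to 0.172 CPM in DSS+polydatin, 0.162 CPM in DSS and 0.165 CPM in control. Near-identical copies are common among them. Of the 65 members in release 29, 14 share at least 50% of their 50-base windows with another gene and 1 of these, H2BC12, was measured, whereas 21 of the 46 that share under 10% were measured. The sources used do not say how reads that fit several genes were counted.

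The main clusters lie on chromosome 6, with 52 members, and chromosome 1, with 11. Many H2A and H2B genes there face away from each other across a shared promoter. Of 12 such pairs of members with starts at most 500 bases apart, all but H3C12 with H2BC17 an H2A beside an H2B gene, 4 had both genes measured. H2BC4 and H2AC6, 219 bases apart, were both higher in DSS than in control, at 1.54 and 2.85 times. H2BC8 and H2AC8, 283 bases apart, were both higher as well, at 1.91 and 2.52 times. H2AC8, however, counts as measured only through the treated libraries (0.771 CPM in control), so it had to differ. H2BC11 and H2AC11, 292 bases apart, both failed to pass at 1.13 and 0.953 times. H2AC25 was higher at 1.62 times and its neighbour H2BC26 did not pass. Another 3 pairs had 1 gene measured, among them H2BC21 with 211 counts in DSS+polydatin, 166 in DSS and 81 in control, beside H2AC20 with 3, 3 and 9 in the same libraries.

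Promoters are shown for a member of the pair that rose, for one of the pair that did not pass, and for H4C8. Each is the 250 bases before the RefSeq start (GRCh38.p14), printed 5′ to 3′ on the gene's strand. Capitals mark the TATA box letters TATAAA, the letters CCAAT that the factor NF-Y is known to bind, and the octamer ATTTGCAT that the POU factor OCT1 is known to bind, on either strand, so that a match on the other strand is printed as its reverse complement.
H2AC6, chr6:26123922-26124171, plus strand: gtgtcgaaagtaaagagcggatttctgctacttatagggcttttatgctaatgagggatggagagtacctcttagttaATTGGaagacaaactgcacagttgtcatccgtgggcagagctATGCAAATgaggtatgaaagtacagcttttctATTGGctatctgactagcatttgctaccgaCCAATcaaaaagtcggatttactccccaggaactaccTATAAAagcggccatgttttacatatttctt
H2AC11, chr6:27132793-27133042, plus strand: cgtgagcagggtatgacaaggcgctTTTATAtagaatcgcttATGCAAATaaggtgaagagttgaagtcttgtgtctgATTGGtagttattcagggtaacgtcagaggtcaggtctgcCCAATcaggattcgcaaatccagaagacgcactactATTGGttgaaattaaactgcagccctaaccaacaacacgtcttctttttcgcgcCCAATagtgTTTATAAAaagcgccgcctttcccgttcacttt
H4C8, chr6:26285535-26285784, minus strand: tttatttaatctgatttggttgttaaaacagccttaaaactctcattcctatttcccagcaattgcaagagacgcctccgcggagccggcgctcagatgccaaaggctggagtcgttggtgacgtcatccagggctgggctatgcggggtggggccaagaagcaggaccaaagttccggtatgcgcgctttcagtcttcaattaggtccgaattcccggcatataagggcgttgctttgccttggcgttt
H2AC6 and H2AC11 both hold TATAAA 31 bases before the start, CCAAT and the octamer, though their DSS to control ratios were 2.85 and 0.953. H4C8, with the largest ratio, holds none of these exact letters in the window. Near matches, such as the letters tataag close to the start of H4C8, were not counted. Whether these letters go with the ratios was not tested. In H2AC11 a TATAAA on each strand overlaps near the start, and both were counted.

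Promoters of 61 members were matched. CCAAT stood in 51 of them (83.6%), TATAAA in 40 (65.6%) and the octamer in 26 (42.6%), against 33.0%, 11.1% and 1.66% of all 27305 promoters of the same length. The octamer belonged to 11 of 14 H2A and 14 of 18 H2B promoters, with none in 5 H1 or 13 H4 promoters. Among measured members 12 of 23 held it (52.2%), and among the others 14 of 38 (36.8%).

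Genes of DNA replication lay below control. The list, which holds the MCM helicase, the polymerases and their clamp loader, and enzymes that supply nucleotides, had all 42 genes measured. All 42 had a DSS to control ratio under 1, and 9 (21.4%) passed as lower with none higher, beside 5.81% lower over all measured genes. The median log2 ratio was −0.46. The list summed to 4130 CPM in DSS+polydatin, 4330 CPM in DSS and 5990 CPM in control, 0.722 times control in DSS (0.715 to 0.729). RFC4, a clamp loader subunit, had 1738 counts in DSS+polydatin, 1736 in DSS and 3279 in control. PRIM1, the catalytic subunit of primase, was at 0.552 times control in DSS (0.480 to 0.634), RFC3 at 0.618 times (0.575 to 0.665) and RRM1, the large subunit of ribonucleotide reductase, at 0.629 times (0.604 to 0.656).

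In DSS+polydatin 20 replication genes were lower than in control and none higher, beside 12.4% lower and 16.0% higher over all measured genes, with a median log2 ratio of −0.58. CDT1 at 1.44 times (1.29 to 1.60), POLA2 at 1.32 times (0.980 to 1.79) and TK1 at 1.10 times control (1.05 to 1.17) lay above 1 without passing. With total-count scaling 12 were lower and 1 higher, and after removal of the length and GC trend 13 were lower. MCM6 had 3100 counts in DSS+polydatin, 5102 in DSS and 7616 in control, 0.646 times DSS in DSS+polydatin (0.617 to 0.675). MCM7 was at 0.575 times control in DSS+polydatin (0.547 to 0.604). CDT1, which loads the helicase, went the other way between the treated libraries, at 1.97 times DSS in DSS+polydatin (1.76 to 2.21), and POLA2 likewise at 1.52 times (1.11 to 2.08). The helicase subunit MCM6 was the single replication gene lower there. In that comparison 4.76% of the list was higher and 2.38% lower, near the 5.39% and 2.6% of all measured genes.

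**Figure D5:**
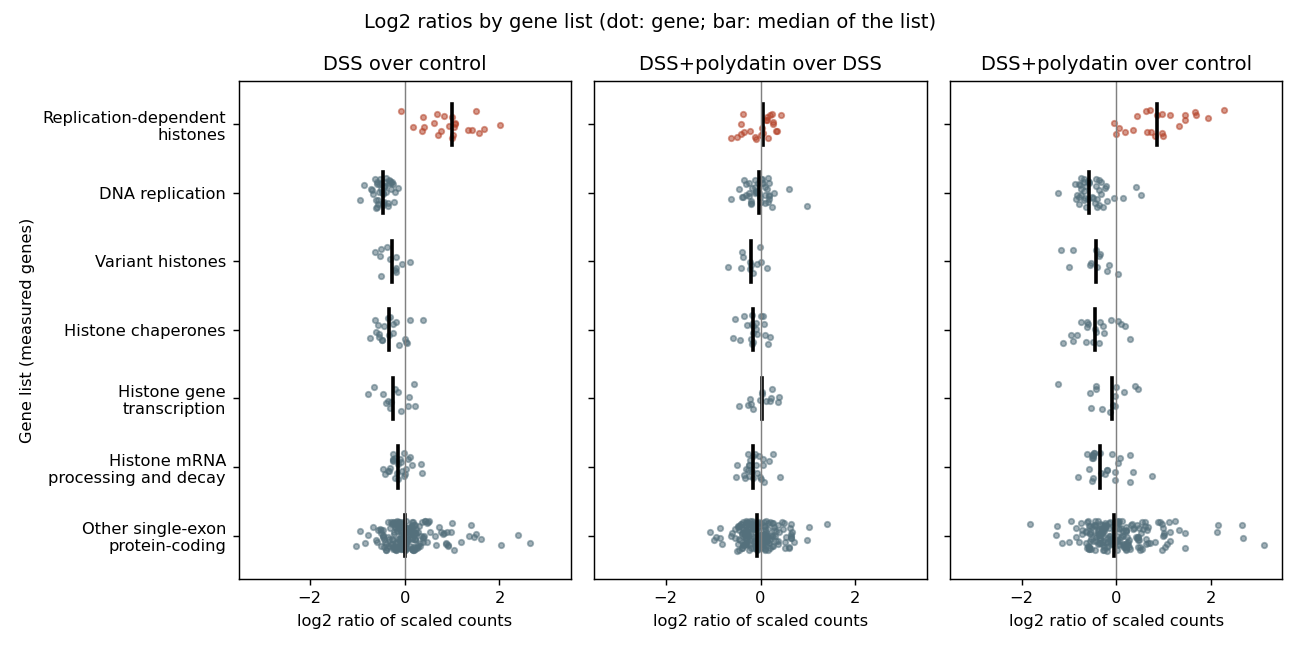
Log2 ratios of scaled counts for measured genes of 7 lists in DSS over control, DSS+polydatin over DSS and DSS+polydatin over control, where each dot is a gene and each bar the median of its list. In DSS over control the histone dots centre on 0.99 and the replication dots on −0.46, and other single-exon protein-coding genes on 0.01.

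Variant histone genes outside the members, most of which are known to give polyadenylated transcripts, had a larger summed level than the members. The 12 listed summed to 1890 CPM in DSS+polydatin, 2190 CPM in DSS and 2610 CPM in control, 0.839 times control in DSS (0.828 to 0.851). None passed as higher in any comparison, with MACROH2A1 at 1.08 times control in DSS (1.05 to 1.12). H2AZ1, which encodes the variant H2A.Z, had 4654 counts in DSS+polydatin, 6417 in DSS and 9716 in control and was lower in both treated libraries, at 0.647 times control in DSS (0.627 to 0.668). CENPA, the centromeric H3 variant, was lower in DSS+polydatin at 0.528 times control (0.460 to 0.605), as was MACROH2A2 at 0.442 times (0.218 to 0.848).

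Regulators of histone genes and histone mRNA mostly did not pass. SLBP, the stem-loop binding protein, had 1596 counts in DSS+polydatin, 1822 in DSS and 2388 in control, 0.748 times control in DSS (0.703 to 0.795). NPAT, the histone gene coactivator at the histone locus body, was at 0.821 times control in DSS (0.765 to 0.882), and its partner CASP8AP2 at 0.902 times (0.828 to 0.983). All 3 lay below control, none by 1.5-fold. Of 14 genes for histone gene transcription 2 were lower in DSS, CCNA2 at 0.583 times control (0.556 to 0.611) and CCNE2 at 0.636 times (0.567 to 0.713), beside 5.81% of all measured genes lower, and both encode S phase cyclins. Of 26 genes for processing, translation and decay of histone mRNA none passed in DSS against control. In DSS+polydatin against control the cleavage factor genes CSTF2 and CPSF3 were lower, at 0.573 times (0.511 to 0.640) and 0.653 times (0.614 to 0.694). CTIF, a translation factor at the nuclear cap-binding complex, was higher at 1.69 times (1.43 to 2.00). Of the 26, 7.69% were thus lower and 3.85% higher, below the 12.4% and 16.0% of all measured genes.

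Histone chaperones, which carry histones to and from DNA, also lay mostly below control. Of 21 measured, 3 were lower in DSS than in control and none higher, with a median log2 ratio of −0.33, and 9 were lower in DSS+polydatin. The shares lower over all measured genes were 5.81% in DSS and 12.4% in DSS+polydatin. NASP, which holds the reserve of soluble histone, had 3776 counts in DSS+polydatin, 4578 in DSS and 7400 in control, 0.606 times control in DSS (0.584 to 0.629). CHAF1B, a subunit of the CAF-1 complex that deposits histones at forks, was at 0.651 times (0.591 to 0.717) and ANP32E, an H2A.Z chaperone, at 0.662 times (0.627 to 0.699). The FACT subunits SSRP1 and SUPT16H passed in DSS+polydatin, at 0.514 times (0.492 to 0.538) and 0.563 times control (0.542 to 0.584).

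Other RNAs that lack a poly(A) tail were counted beside the histones. Leaving out MALAT1 and NEAT1, 34 such genes, mostly small nuclear and nucleolar RNAs, summed to 152 counts in DSS+polydatin, 170 in DSS and 159 in control, and the DSS sum was 1.05 times control (0.839 to 1.31). RN7SK, RMRP, RPPH1 and TERC had no counts in any library. NEAT1, a long noncoding RNA of which one form lacks a tail, had 26406 counts in DSS+polydatin, 18560 in DSS and 8332 in control, 2.18 times control in DSS (2.13 to 2.24). MALAT1, whose end is folded into a triple helix, had 15897 counts in DSS+polydatin, 10482 in DSS and 7500 in control, 1.37 times control in DSS (1.33 to 1.41). Both were higher in DSS+polydatin than in DSS, at 1.51 times for NEAT1 (1.48 to 1.54) and 1.61 times for MALAT1 (1.57 to 1.65). The histone sum there was at 0.986 times DSS. Among the 185 other measured protein-coding genes with only single-exon transcripts, 9.73% were higher and 2.16% lower in DSS than in control, and the median log2 ratio was 0.01.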

How the data were processed

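Caco-2 libraries of total RNA were sequenced, 1 for each of 3 groups. The authors deposited raw read counts per Ensembl gene, with no normalization, aligned with HISAT2 to GRCh38 per the submitters' processing notes. Which HISAT2 version, counter, gene annotation, strand rule and multimapping rule were used: not given in the sources used here. Counts were scaled with TMM factors (edgeR 4.0.16, R 4.3.3), which were 1.05 for DSS+polydatin, 0.984 for DSS and 0.971 for control. Ratios have exact 95% Clopper-Pearson intervals on the counts of both libraries (Python 3.11.15, scipy 1.17.1), tested on simulated data. A ratio with a 0 on one side had 0.5 added to each side. Reads carry no molecular identifiers, so intervals cover counting error only. Zero floors are 3 counts.

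Symbols came from the reference gene table and coordinates, transcripts and windows from GENCODE release 29. Promoters came from RefSeq. Every measured member is named. Full values are given for the 3 most abundant of each family and the 2 highest and lowest of each comparison. Of the other lists up to 4 called genes per comparison are named, and SLBP, NPAT and CASP8AP2 always. Others were chosen after their values were seen. Members and lists were chosen with earlier results of these data known, and the 100-base limit for extended transcripts was set with the annotation and counts in view. Alternatives were size factors from DESeq2 1.42.0, scaling by totals, a filter at 10 CPM or none, a 2-fold rule, 2 counts added, removal of a trend on length and GC content (statsmodels 0.14.6), leaving out the most counted member, and means in place of medians.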

Additional observations from a re-analysis of the deposited data

How the results depend on the processing

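In DSS against control the summed histone ratio was 2.15 without H2BC12, and with a CPM of at least 10 all 6 members left were higher. Among these, H2BC5 (8.7 CPM in control), H3C6 (4.24 CPM) and H2BC21 (4.46 CPM) reached 10 CPM only in a treated library. They had to lie above control there, so this filter is no separate check in either contrast with control. Other settings gave 11 to 17 members higher in DSS and none lower. In DSS+polydatin against control the summed ratio was 2.25 without H2BC12 and 2.14 with total-count scaling. There 8 members were higher by the 2-fold rule and 5 of 6 with a CPM of at least 10 (median log2 ratio 1.54), and with no filter 1 member, H3C2, was lower with 1 count in DSS+polydatin and 8 in control. In DSS+polydatin against DSS the summed ratio was 1.05 both without H2BC12 and with total-count scaling. After removal of the length and GC trend, 1 member, H2BC12, was lower there. Replication genes lower in DSS than in control numbered 7 with total-count scaling, 12 with DESeq2 size factors and 6 with the trend removed, against 9 with TMM scaling. Replication genes lower by the 2-fold rule numbered 0 in DSS against control, 1 in DSS+polydatin against control and 0 in DSS+polydatin against DSS, where 0 were higher. In that last comparison none was lower with total-count scaling or with the trend removed (0 each), and 1 was higher with a CPM of at least 10. In DSS+polydatin against control 12 were lower and 1 higher with total-count scaling, and 13 were lower with the trend removed. The cause of these shifts was not tested, apart from fewer genes at the stricter filter and fold. Of 180 values of named members under alternatives, 174 kept their side of the 1.5-fold line, 5 came to pass it and 1, H2BC12, no longer did. Among the 174, 6 that passed in neither setting changed sign, for H2AC11, H3C10 and H2BC12, with log2 ratios from −0.08 to 0.17 under the alternatives. Depth limits the members under 1 CPM. No paired analysis was possible because each group has 1 library.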

Other observations

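Histone pseudogenes are left out by the choice of members. Of 15 pseudogenes 9 had a count, and 2 had more than 20 counts in a library, both from the chromosome 1 cluster and both named after their values were seen. H2BC20P had 564 counts in DSS+polydatin, 498 in DSS and 452 in control, 1.08 times control in DSS (0.949 to 1.23). H2BC19P had 355 counts in DSS+polydatin, 353 in DSS and 382 in control, 0.906 times control in DSS (0.781 to 1.05). Summed over the 15, the DSS to control ratio was 1.01 (0.917 to 1.11), against 2.02 for the genes, and the DSS+polydatin sum was 1.15 times control (1.05 to 1.26). These sums rest almost wholly on H2BC20P and H2BC19P. H2AC10P had 11 counts in DSS+polydatin, 19 in DSS and 8 in control, 2.33 times control in DSS (0.973 to 6.15). Measured members on chromosome 1 included H2BC21, H2BC18, H2AC25 and H2BC26, and the 11 members there summed to 379 counts in DSS+polydatin, 320 in DSS and 177 in control, 1.77 times control in DSS (1.47 to 2.14). Between the treated libraries the chromosome 1 sum in DSS+polydatin was 1.26 times DSS (1.08 to 1.46), and that of the 52 members on chromosome 6 was 0.968 times DSS (0.926 to 1.01). H2BC21, at 1.35 times DSS, held 211 of the 379 chromosome 1 counts in DSS+polydatin and 166 of the 320 in DSS. The chromosome 6 sum includes H2BC12, at 0.709 times DSS. Whether the clusters differ apart from these genes was not tested.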
